A study of Mus musculus with 3 samples.

Results

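Costimulatory and checkpoint genes were followed in immune cells of the mouse lung before and after syngeneic transplantation. The set held 10 genes, which were Cd28, Icos, Ctla4, Pdcd1, Lag3, Tigit, Havcr2, Cd274, Cd80 and Cd86, and each was matched by its symbol to the gene table of every library. All 10 were found among the 32285 genes measured in each library. Their UMIs (unique molecular identifiers, which count captured RNA molecules) were summed per library over 7 lineages named from marker genes, and the member genes were kept out of the clustering itself.

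The series held 3 single-cell libraries, 1 for each condition, and each library was a pool of 2 mice. In the naive condition, left lungs of mice without a transplant were used. In the transplant conditions, left lungs of CD45.2 B6 donors were stored for 60 min at 4 °C, held at 28 °C for 45 min and grafted into CD45.1 B6 recipients, and the grafts were taken at 2 h or at 3 d after reperfusion. All of the mice shared the C57BL/6J background, so that donor and host differed in the Cd45 allele used for sorting. The labels give the same sort for CD45.1+ cells in every library, including the naive one, in which no recipient cells exist. In the grafts the sort was meant to keep cells of the recipient and to leave out those that came with the donor lung.

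T cells read their antigen receptor together with a second layer of signals from neighbouring cells. CD28 on the T cell binds CD80 or CD86 on the antigen-presenting cell and supports activation, whereas CTLA-4 binds the same ligands with higher affinity and restrains it. ICOS is a relative of CD28 that appears after activation and on regulatory T cells, and PD-1 (Pdcd1) carries an inhibitory signal when it meets PD-L1 (Cd274). LAG-3, TIGIT and TIM-3 (Havcr2) are further inhibitory receptors, and TIM-3 is found on myeloid cells as well as on T and NK cells.

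By the annotation of GENCODE vM21 on GRCm38 (mm10), 3 of the receptor genes lay side by side on chromosome 1: Cd28 (ENSMUSG00000026012) at chr1:60716800-60773359, Ctla4 (ENSMUSG00000026011) at chr1:60887000-60915832 and Icos (ENSMUSG00000026009) at chr1:60977927-61000320, each on the plus strand. Pdcd1 (ENSMUSG00000026285) lay farther along the same chromosome at chr1:94038305-94052553 on the minus strand. Both B7 ligands and Tigit were on chromosome 16, with Cd86 (ENSMUSG00000022901) at chr16:36603869-36666081, Cd80 (ENSMUSG00000075122) at chr16:38455561-38496335 and Tigit (ENSMUSG00000071552) at chr16:43648867-43664146. Havcr2 (ENSMUSG00000020399) was at chr11:46454935-46481255, Lag3 (ENSMUSG00000030124) at chr6:124904361-124911705 and Cd274 (ENSMUSG00000016496) at chr19:29367455-29388095. The total intron length was between 12.3 kb (Pdcd1) and 58.6 kb (Cd86) in 9 members and 5.24 kb in Lag3.

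After filtering, 2422 of 2921 naive cells, 10283 of 10328 cells at 2 h and 8324 of 9016 cells at 3 d remained. The libraries differed widely in depth, with a median of 7298.5 UMIs per kept cell in the naive library, 878 at 2 h and 5716.5 at 3 d. Between 1 and 23 cell barcodes were shared by any pair of libraries. The naive library had been counted with another software version (7.1.0) than the transplant libraries (6.0.0), and genes with over 100 kb of intron had a median log2 ratio to naive between -2.13 and -1.37 at 2 h, according to lineage. In the class of 10 to 100 kb, which holds 9 of the members, this median lay between -0.67 and -0.23 at 2 h and between -0.43 and 0.21 at 3 d. Neither the methods nor the labels used here say whether reads in introns were counted, so every ratio to the naive library carries this shift, and software version and transplantation cannot be told apart. Comparisons between lineages of the same library and between 2 h and 3 d are free of that difference in software.

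Since each condition was measured in 1 library, spread between mice was not measured and no test was possible. Levels are therefore given as UMIs in 1000000 UMIs of the same cells (CPM), ratios between libraries as log2 ratios, and the ranges in parentheses are exact 95% Poisson intervals of a level or exact conditional intervals of a ratio. They cover counting error only. A ratio was counted as past 2-fold where both libraries together held at least 20 UMIs, and a sum of 0 was set to 3 UMIs. A level in CPM cannot tell less RNA of a gene from more RNA of the others, and the levels of different genes are not compared in size.

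The T-like cluster cells (578, 2518 and 1058 cells in the naive, 2 h and 3 d libraries) expressed Cd3d, Cd3e and Cd3g, and were divided by their own Cd4, Cd8a and Cd8b1 UMIs into CD4 cells (201, 142 and 316) and CD8 cells (232, 417 and 495). At 2 h most T-like cells could not be divided by these UMIs. NK cells (515, 1008 and 326), B cells (558, 1721 and 2158) and neutrophils (388, 4498 and 2480) carried their markers in every library. Dendritic cells formed a cluster of 39 cells at 2 h and 77 at 3 d and none in the naive library. The cells called macrophages (86, 153 and 191) were not alike. In the naive library they carried alveolar macrophage genes (Marco, Ear1). At 3 d they carried complement C1q genes, and C1qb was the leading gene of a cluster of 115 of these cells. C1qa and C1qb, together with Mrc1, which is not a C1q gene, summed to 4764 CPM at 3 d and to 1116 CPM in the naive cells. At 2 h the cells carried markers of more than 1 kind. The alveolar genes Siglecf, Marco and Fabp4 summed to 426 CPM at 2 h, close to the 465 CPM of the naive cells, and Ear1, Mrc1 and Marco were among the leading genes, yet Ace, Treml4 and Cd300e, which mark nonclassical monocytes, summed to 1415 CPM against 34.9 CPM in naive lungs. Ratios of macrophages therefore compare mixed or different kinds of cells. The dendritic clusters differed in kind as well, since the mature dendritic genes Ccr7, Ccl22 and Fscn1 summed to 1098 CPM at 2 h and 653 CPM at 3 d, and the cDC2 genes Cd209a, Mgl2 and Clec10a to 404 and 1233 CPM. Of 92 cells called dendritic individually from their markers at 2 h, 14 lay in the dendritic cluster, against 47 of 58 at 3 d.

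**Figure D1:**
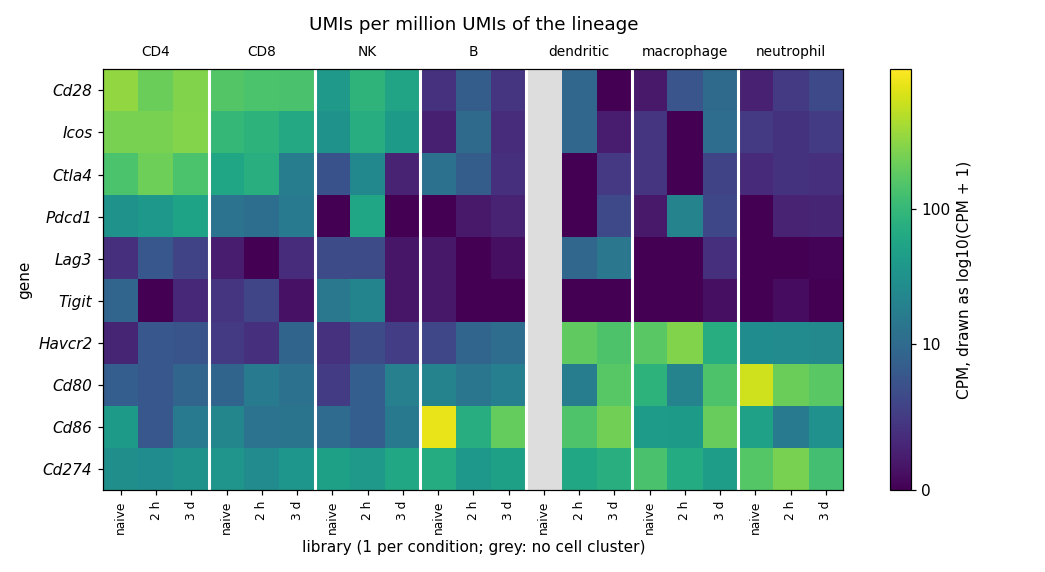
Heat map of the levels of the 10 genes (rows) in 7 lineages, with the 3 libraries beside each other within a lineage (columns). Colour gives CPM on a scale of log10(CPM + 1), and grey marks the naive library in the dendritic column, where no cluster formed. Cd28 and Icos form a block in CD4 and CD8 cells in every library, Cd80 (in naive lungs and at 2 h) and Cd274 peak in neutrophils, and Cd86 is highest in naive B cells at 785 CPM.

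Cd28, the constitutive costimulatory receptor of T cells, was highest in CD4 cells in every library. Its level was 330 CPM (304 to 357) in naive CD4 cells, 213 CPM (150 to 292) at 2 h and 272 CPM (252 to 293) at 3 d. In CD8 cells the level was 155 CPM (140 to 171), 139 CPM (112 to 172) and 138 CPM (128 to 149) in the same order. The intervals of the CD8 values overlapped across all libraries, and the log2 ratio of 3 d to naive was -0.16 (-0.34 to 0.02). Within the naive library the CD4 level exceeded the CD8 level by 1.09 on the log2 scale (0.91 to 1.27), and at 3 d by 0.97 (0.82 to 1.13). Cd28 in CD4 cells was lower at 3 d than in naive lungs by a log2 ratio of -0.28 (-0.44 to -0.12), which became -0.10 after the median of genes of like intron length was subtracted.

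Icos, the inducible relative of Cd28, was again a CD4 gene. CD4 cells held 250 CPM (228 to 273) in naive lungs, 246 CPM (179 to 330) at 2 h and 275 CPM (255 to 295) at 3 d. These values did not differ beyond counting error, with a log2 ratio of 0.14 (-0.03 to 0.31) between 3 d and naive. CD8 cells held 99.7 CPM (88.1 to 112) in naive lungs, 86.5 CPM (65.0 to 113) at 2 h and 64.0 CPM (57.1 to 71.4) at 3 d. The gap between CD4 and CD8 cells was thus 1.32 on the log2 scale in naive lungs (1.10 to 1.55) and 2.10 at 3 d (1.91 to 2.30).

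Ctla4, the inhibitory counterpart of Cd28, had its lowest T cell level in CD8 cells at 3 d. In CD8 cells the values were 57.1 CPM (48.4 to 66.9) in naive lungs, 76.9 CPM (56.7 to 102) at 2 h and 17.1 CPM (13.7 to 21.1) at 3 d. The 3 d library stood apart from both others, with a log2 ratio of -1.74 (-2.14 to -1.35) to naive and of -2.17 (-2.70 to -1.63) to 2 h. The ratio to 2 h stayed between -2.28 and -1.91 in every alternative processing that gave a value. In CD4 cells the level was 140 CPM in naive lungs (124 to 158), 218 CPM at 2 h (155 to 298) and 140 CPM at 3 d (126 to 155). Naive and 3 d CD4 cells did not differ beyond counting error (log2 ratio -0.01, -0.24 to 0.23), and the 2 h value was higher by 0.64 (0.11 to 1.13), short of 2-fold, on 39 UMIs in 142 cells. Within the 3 d library CD4 cells exceeded CD8 cells by 3.03 on the log2 scale (2.68 to 3.39), against 1.30 in the naive library.

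Pdcd1, which encodes PD-1, was low in T cells. CD4 cells held 34.0 CPM (26.2 to 43.4) in naive lungs, 39.2 CPM (15.7 to 80.7) at 2 h on only 7 UMIs, and 53.5 CPM (45.0 to 63.2) at 3 d. The log2 ratio of 3 d to naive was 0.66 (0.22 to 1.11), above 0 beyond counting error but under 2-fold. CD8 cells held 13.1, 11.2 and 16.1 CPM in the naive, 2 h and 3 d libraries, with overlapping intervals. At 3 d, 13.6% of CD4 cells and 6.87% of CD8 cells had a Pdcd1 UMI, against 9.95% and 5.60% in naive lungs.

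**Figure D2:**
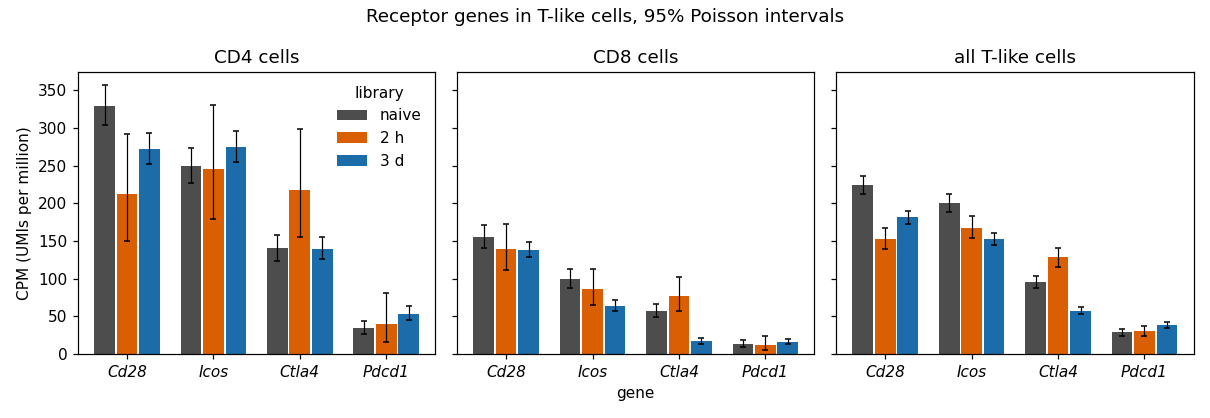
Levels in CPM of Cd28, Icos, Ctla4 and Pdcd1 in CD4 cells, CD8 cells and all T-like cells, 1 bar per library with its exact 95% Poisson interval (counting error only). The Ctla4 bar of CD8 cells at 3 d ends at 17.1 CPM, below the naive and 2 h bars at 57.1 and 76.9 CPM.

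CD4 cells with a Foxp3 UMI, the transcription factor of regulatory T cells, were few, with 9 cells in the naive library, 7 at 2 h and 31 at 3 d. They held far more Ctla4 than the other CD4 cells of the same library, at 1105 CPM against 84.8 CPM in naive lungs, 1163 against 160 CPM at 2 h and 773 against 76.7 CPM at 3 d. The log2 ratios were 3.70 (3.34 to 4.07), 2.86 (1.74 to 3.89) and 3.33 (3.03 to 3.64). The direction was thus the same in all 3 libraries, and 50% of the Ctla4 UMIs of CD4 cells at 3 d lay in these 31 cells. Icos was higher in the Foxp3+ cells by 2.27 on the log2 scale in naive lungs (1.94 to 2.59) and by 1.72 at 3 d (1.46 to 1.96), while the value at 2 h, 1.37, had an interval that reached below 0 (-0.17 to 2.62). Cd28 did not differ beyond counting error in any library, with log2 ratios of 0.41 (-0.07 to 0.85), -0.14 (-3.24 to 1.82) and -0.11 (-0.52 to 0.28). The Foxp3+ cells of naive lungs rested on few cells: 81 of their 113 Ctla4 UMIs and 90 of their 102 Icos UMIs were in the 3 highest cells for each gene.

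**Figure D3:**
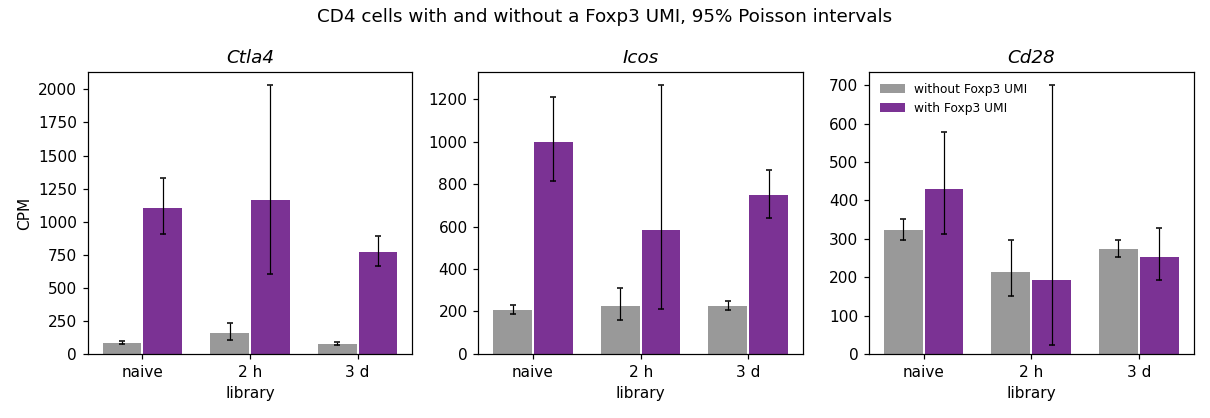
Levels in CPM of Ctla4, Icos and Cd28 in CD4 cells with and without a Foxp3 UMI in each library, with exact 95% Poisson intervals (counting error only). Ctla4 is higher with Foxp3 in all 3 libraries, by log2 ratios of 3.70, 2.86 and 3.33, whereas the Cd28 intervals of both kinds of cells overlap.

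NK cells gave the most uneven receptor values. Pdcd1 had 0 UMIs in naive NK cells (3 UMIs would be 0.704 CPM), then 57 UMIs or 56.6 CPM (42.9 to 73.3) at 2 h, and 0 UMIs again at 3 d (3 UMIs would be 1.52 CPM). The exact conditional intervals used the counts of 0 as they stood. By their lower ends, the 2 h level was at least 5.98 higher on the log2 scale than the naive level. It was at least 4.87 higher than the level at 3 d. The UMIs were not spread over the lineage. In the 193 NK-like cells at 2 h that also had a UMI of Cd3d, Cd3e or Cd3g, which belong to the T cell receptor complex, Pdcd1 stood at 187 CPM (141 to 243) and 55 UMIs in 28 cells, while the other 815 NK-like cells held 2 UMIs (2.81 CPM, 0.34 to 10.1). Ctla4 likewise had 21 of its 24 NK UMIs at 2 h in the cells with a Cd3 UMI. Summed Cd3d, Cd3e and Cd3g stood at 459 CPM in the NK cells at 2 h, 21.4 CPM in naive lungs and 53.1 CPM at 3 d. The NK-like cells of the 2 h library therefore included cells with T cell RNA, and without the cells holding a Cd3 UMI the log2 ratio of Ctla4 between 2 h and naive was -0.27 instead of 2.34. Cd28 and Icos in NK cells were past 2-fold at 2 h as well (log2 ratios of 1.18 and 1.15 to naive), and neither was once those cells were left out.

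**Figure D4:**
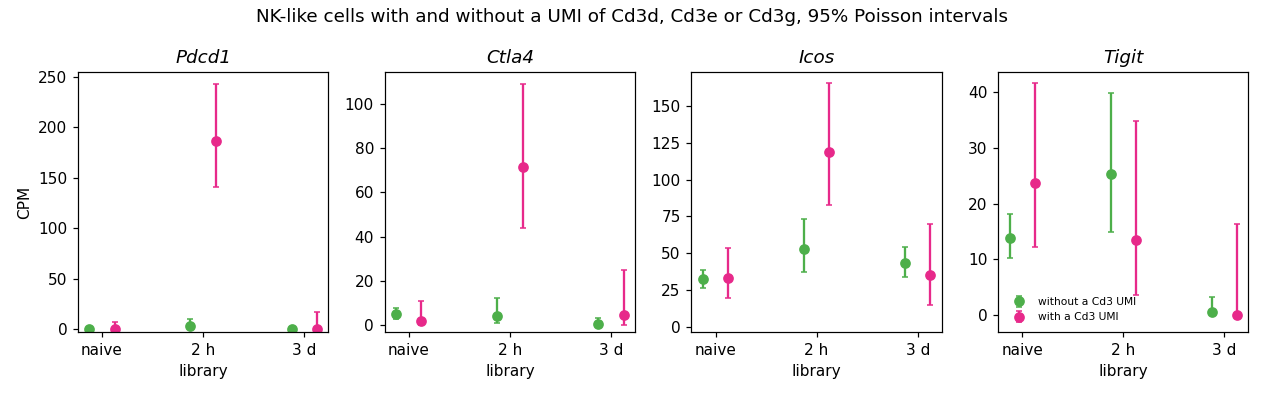
Levels in CPM of Pdcd1, Ctla4, Icos and Tigit in NK-like cells with and without a UMI of Cd3d, Cd3e or Cd3g in each library, with exact 95% Poisson intervals (counting error only). At 2 h Pdcd1 lies at 187 CPM in the 193 cells with a Cd3 UMI and at 2.81 CPM in the 815 cells without.

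Tigit, an inhibitory receptor for nectin-family ligands, was an NK gene in naive lungs and at 2 h, and was nearly absent from NK cells at 3 d. NK cells held 15.0 CPM (11.6 to 19.2, 64 UMIs) in naive lungs, 21.8 CPM (13.7 to 33.1, 22 UMIs) at 2 h and 0.506 CPM (0.013 to 2.82, 1 UMI) at 3 d. The 3 d level was lower than naive by a log2 ratio of -4.89 (-10.22 to -2.36) and lower than 2 h by -5.43 (-10.80 to -2.80). Naive CD4 cells held 8.49 CPM on 16 UMIs, so that naive NK cells exceeded them by 0.82 on the log2 scale (0.02 to 1.71), under 2-fold. At 2 h CD4 cells had 0 UMIs. With that sum set to 3 UMIs, NK cells exceeded them by 0.38, and the interval, from -0.04 upward, reached below 0. Of the NK UMIs at 2 h, 18 were in cells without a Cd3 UMI, so Tigit did not follow the Cd3 RNA. The whole 3 d library held 9 Tigit UMIs in kept cells, 3 of them in CD4 cells, against 98 in the smaller naive library. No lineage could be ranked for Tigit at 3 d at this depth.

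Lag3 was close to its counting limit in CD4, CD8, NK and B cells, with at most 17 UMIs per lineage and library. Its highest levels were found outside these lineages, in plasmacytoid dendritic cells, the type I interferon producers marked by Siglech and Ccr9. They held 25.6 CPM (13.2 to 44.8) in 53 naive cells, 159 CPM (58.3 to 346) in 18 cells at 2 h on 6 UMIs and 226 CPM (177 to 285) in 21 cells at 3 d on 71 UMIs. The naive cluster was a mixed one, in which Siglech, Ccr9 and Cox6a2 summed to 940 CPM against 6728 CPM at 2 h and 5775 CPM at 3 d, the mature dendritic genes Ccr7, Ccl22 and Fscn1 to 997 CPM and the alveolar epithelial genes Sftpc, Sftpa1 and Sftpb to 4910 CPM. Its Lag3 level is thus not that of plasmacytoid dendritic cells alone, and no ratio to it is drawn. At 3 d the level exceeded that of conventional dendritic cells, 14.3 CPM (8.74 to 22.1), by 3.98 on the log2 scale (3.25 to 4.78). Basophil or mast cells at 3 d held 34.2 CPM (21.7 to 51.3). These groups were named from markers, but they lie outside the 7 lineages, and their few cells leave differences between cells unmeasured.

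Havcr2, which encodes TIM-3, was a gene of myeloid cells here and not of T cells. In nonclassical monocytes, the patrolling monocytes marked by Ace and Treml4, its level was 372 CPM (331 to 417) in naive lungs, 154 CPM (82.3 to 264) at 2 h and 166 CPM (151 to 181) at 3 d. Ace, Treml4 and Cd300e summed to 1535, 1319 and 1995 CPM in these cells, but none of them was among the 10 leading genes of the 56 cells at 2 h. The neutrophil genes S100a8, S100a9 and Csf3r summed to 1793, 3612 and 503 CPM there, and their part in the values was not tested. Classical monocytes held 133 CPM (111 to 158), 166 CPM (122 to 221) and 79.2 CPM (71.5 to 87.5). Basophil or mast cells were also high, at 120 CPM in naive lungs, 330 CPM at 2 h and 162 CPM at 3 d. In the naive library the nonclassical monocytes thus had the highest of these values, and at 2 h the basophil or mast cells did. Dendritic cells held 184 CPM (114 to 282) at 2 h and 144 CPM (125 to 165) at 3 d, a difference within counting error (log2 ratio -0.36, -1.01 to 0.36). Neutrophils were low and even, at 28.0 CPM (21.6 to 35.9), 27.3 CPM (22.5 to 32.9) and 25.1 CPM (22.4 to 28.1). Macrophage-labelled cells held 170 CPM (150 to 191), 268 CPM (200 to 353) and 73.9 CPM (64.7 to 84.0), across kinds of cells that differ as described above.

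In T cells Havcr2 was barely detected. CD8 cells held 2.24 CPM in naive lungs on 6 UMIs, a single UMI at 2 h and 8.25 CPM (5.92 to 11.2) at 3 d on 41 UMIs. The log2 ratio of 3 d to naive was 1.88 (0.64 to 3.41), but it was -1.48 when every deposited cell was called individually from marker UMIs, so that its direction turned with the choice of cells. Of the 41 UMIs at 3 d, 32 were in 26 CD8 cells of 1 small T-like cluster (77.6 CPM), of whose 42 cells 9.52% were called doublets, while the 463 CD8 cells of the main T-like cluster held 9 UMIs or 2.00 CPM, against 2.27 CPM in the main T-like cluster of naive lungs. Neutrophil RNA was unequal among the libraries in the CD8 cells, with S100a8, S100a9 and Csf3r summed to 648 CPM in naive lungs, 1300 CPM at 2 h and 1742 CPM at 3 d. Its part in the Havcr2 value was not tested. In B cells Havcr2 was 3.36 CPM (1.74 to 5.87) in naive lungs, 8.62 CPM (4.71 to 14.5) at 2 h and 10.9 CPM (9.07 to 12.9) at 3 d. The same neutrophil genes summed to 208 CPM in naive B cells and to 1860 CPM in those at 2 h. Leaving out cells with UMIs of another lineage kept 295 of 558 naive B cells and 520 of 2158 at 3 d. The part of such RNA in the B cell values was not tested. At 3 d the largest B cell cluster (1854 cells) held 3.71 CPM, while a cluster of 86 cells led by heat-shock genes held 71.3 CPM and a cluster of 25 cells, of which 80% were called doublets, held 66.7 CPM. The largest naive B cell cluster (549 cells) held 0.864 CPM (0.178 to 2.53) on 3 UMIs. The largest cluster at 3 d lay above it, at 3.71 CPM (2.64 to 5.07) on 39 UMIs. Between the largest clusters the level was thus higher at 3 d, on few UMIs in naive lungs. Of the 12 Havcr2 UMIs of all naive B cells, 3 were in the largest naive cluster. The B cells outside the largest clusters were not compared between libraries.

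Cd86, a ligand of CD28 and CTLA-4, was the most library-dependent ligand and was highest in naive B cells. B cells held 785 CPM (756 to 815) in naive lungs, 72.6 CPM (60.1 to 87.0) at 2 h and 194 CPM (186 to 202) at 3 d. The log2 ratio to naive was -3.43 (-3.71 to -3.17) at 2 h and -2.02 (-2.10 to -1.94) at 3 d. Cd86 has the longest total intron length of the members, at 58.6 kb. After the median of B cell genes with 10 to 100 kb of intron was subtracted, the ratios were -2.76 and -1.80. At 2 h that median was -0.67 in B cells, and the median of genes with over 100 kb was -2.13. Whether the class median covers the shift of a gene of 58.6 kb was not tested. Between 2 h and 3 d, libraries counted with the same software version, the level was higher at 3 d by 1.42 (1.15 to 1.70). When each cell was thinned to 500 UMIs, 28.7% (25.0 to 32.6, exact Clopper-Pearson) of naive B cells had a Cd86 UMI, against 3.86% at 2 h (2.98 to 4.90) and 9.41% at 3 d (8.21 to 10.7). Without thinning, those shares were 73.3%, 6.28% and 51.1%. T-like cells, thinned in the same way, had a Cd86 UMI in 1.56%, 0.24% and 0.38% of cells. The B cell shares were thus above this background in every library. B cells carried 73.6% of all Cd86 UMIs of kept cells in the naive library, 44.2% at 2 h and 39.5% at 3 d. They made up 23.0%, 16.7% and 25.9% of the kept cells in the same order.

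Myeloid cells gave a different order for Cd86. In conventional dendritic cells the level was 149 CPM (87.0 to 239) at 2 h and 230 CPM (205 to 256) at 3 d, with a ratio within counting error (0.62, -0.08 to 1.42). At 3 d dendritic cells, macrophages (200 CPM) and B cells (194 CPM) were the leading lineages. In classical monocytes the level was 243 CPM (213 to 275) in naive lungs, 56.5 CPM (32.3 to 91.7) at 2 h and 91.8 CPM (83.4 to 101) at 3 d. In nonclassical monocytes it was 281 CPM (245 to 320), 59.4 CPM (19.3 to 139) and 61.0 CPM (52.3 to 70.8). Both monocyte groups thus shared with B cells a naive level above that at 2 h and 3 d. The naive value was also the highest in neutrophils (51.2, 16.7 and 31.7 CPM) and CD8 cells (22.8, 12.8 and 13.1 CPM), and CD4 cells are given below. These differences to naive carry the shift in software described above. NK cells were highest at 3 d (10.1, 6.95 and 15.2 CPM). Macrophage-labelled cells went the other way, from 42.7 CPM in the alveolar-type naive cells to 200 CPM in the C1q cells at 3 d, a log2 ratio of 2.23 (1.87 to 2.60) between unlike cells, which was 0.98 when cells were called individually.

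The CD4 cells of naive lungs had a small Cd86 signal of 42.5 CPM, past 2-fold over the 3 d level of 16.3 CPM (log2 ratio -1.38, -1.96 to -0.83). Of its 80 UMIs, 45 were in the 9 Foxp3+ cells and 44 of those in 3 cells. The naive Foxp3+ cells also held 17 UMIs of Cd79a, a B cell gene, all in 1 cell. Without the Foxp3+ cells, CD4 cells stood at 19.6 CPM in naive lungs and 17.9 CPM at 3 d.

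Cd80, the other B7 ligand, was led by neutrophils among the 7 lineages in naive lungs and at 2 h, while at 3 d neutrophils and dendritic cells did not differ beyond counting error. Neutrophils held 598 CPM (567 to 631) in naive lungs, 209 CPM (196 to 224) at 2 h and 168 CPM (161 to 176) at 3 d. The ratio to naive was -1.51 (-1.64 to -1.39) at 2 h and -1.83 (-1.93 to -1.73) at 3 d. After the median of genes with 10 to 100 kb of intron was subtracted, it was -1.29 and -2.04. Thinned to 500 UMIs per cell, 24.7% (20.5 to 29.3) of naive neutrophils, 9.72% (8.84 to 10.7) at 2 h and 8.91% (7.82 to 10.1) at 3 d had a Cd80 UMI. The unthinned shares were 77.6%, 15.6% and 45.5%, and the thinned shares of T-like cells were 0.17%, 0.20% and 0.57%. Neutrophils carried 71.3% of all Cd80 UMIs of kept cells in the naive library, 89.4% at 2 h and 38.7% at 3 d. They made up 16.0%, 43.7% and 29.8% of the kept cells in the same order. Within each library they exceeded B cells by 4.85 on the log2 scale in naive lungs (4.51 to 5.21), by 3.89 at 2 h (3.29 to 4.55) and by 3.17 at 3 d (2.97 to 3.37).

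Neutrophil clusters differed among themselves in Cd80. At 2 h the largest cluster (2872 cells) held 234 CPM, a cluster led by Ccl4, Ccl3 and Cxcl3 (363 cells) 227 CPM and a cluster led by the granule genes Ngp and Camp (1158 cells) 173 CPM, while 104 cells led by S100a8 and S100a9 held 73.7 CPM. At 3 d a cluster of 158 cells led by Mmp9, Csf1, Siglecf, Tnf and Ccl3 held 304 CPM, against 163 CPM in the main cluster of 2240 cells. The same small cluster had 97.9 CPM of Havcr2 against 15.3 CPM, and 160 CPM of Cd274 against 123 CPM. These clusters were drawn without the member genes, and the differences are given as descriptions.

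Outside neutrophils, Cd80 was found in dendritic cells at 3 d and scarcely at 2 h. Dendritic cells held 17.6 CPM (2.13 to 63.5) on 2 UMIs at 2 h and 164 CPM (143 to 187) on 229 UMIs at 3 d, a log2 ratio of 3.22 (1.35 to 6.28) between clusters in which the mature dendritic and the cDC2 genes were unlike. The ratio lay between 2.23 and 4.04 in the alternatives that gave a value. Since 39 cells at 2 h yielded 2 UMIs, the size of this difference is loosely fixed. In naive lungs, where no dendritic cluster formed, 17 cells called dendritic individually from their markers held 241 CPM of Cd80 and 360 CPM of Cd86. At 3 d a cluster led by Saa3 and Arg1 (582 cells), found in that library alone and left unnamed, held 202 CPM of Cd80, above the neutrophils of that library by 0.26 on the log2 scale (0.16 to 0.36), and 104 CPM of Cd274. Macrophage-labelled cells held 86.6 CPM (73.1 to 102) of Cd80 in naive lungs, 21.0 CPM (5.73 to 53.9) at 2 h on 4 UMIs and 144 CPM (131 to 158) at 3 d. B cells were low and did not differ beyond counting error, at 20.7 CPM, 14.2 CPM and 18.8 CPM. Classical monocytes held 137 CPM (115 to 162), 88.2 CPM (57.1 to 130) and 45.7 CPM (39.9 to 52.1) of Cd80 in naive lungs, at 2 h and at 3 d.

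A Cd80 signal in NK cells was higher at 3 d, at 19.2 CPM on 38 UMIs, than in naive lungs, at 2.35 CPM on 10 UMIs (log2 ratio 3.03, 2.00 to 4.20). The neutrophil genes S100a8, S100a9 and Csf3r, summed in the same cells, stood at 321 CPM in naive lungs, 1299 CPM at 2 h and 3556 CPM at 3 d. Their part in the Cd80 value was not tested.

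Cd274, the gene of PD-L1, was the broadest ligand and had its highest value among the 7 lineages in neutrophils in every library, although naive neutrophils and macrophages did not differ beyond counting error (0.22, -0.02 to 0.47). Neutrophils held 160 CPM (144 to 177) in naive lungs, 247 CPM (232 to 263) at 2 h and 126 CPM (120 to 133) at 3 d. The 2 h level exceeded the naive level by 0.63 on the log2 scale (0.45 to 0.81). After the median of genes with 10 to 100 kb of intron was subtracted, this ratio was 0.85. The level at 3 d was lower than at 2 h by -0.97 (-1.08 to -0.85). All of these stayed under 2-fold while lying beyond counting error. The share of neutrophils with a Cd274 UMI, thinned to 500 UMIs, was 7.99% (5.49 to 11.1), 10.4% (9.53 to 11.4) and 5.97% (5.07 to 6.97), against 1.90%, 1.40% and 1.80% of T-like cells. The unthinned neutrophil shares were 29.6%, 16.0% and 29.5%, whose order followed the depth of the libraries and not the level.

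Monocytes split sharply for Cd274. Nonclassical monocytes held 188 CPM (159 to 220) in naive lungs, 59.4 CPM (19.3 to 139) at 2 h on 5 UMIs and 150 CPM (136 to 165) at 3 d. Classical monocytes held 6.09 CPM (2.24 to 13.3), 10.6 CPM (2.18 to 30.9) and 7.61 CPM (5.36 to 10.5). Within the naive library the gap was 4.95 on the log2 scale (3.79 to 6.42), and at 3 d it was 4.30 (3.81 to 4.82). For Cd86 the same groups of cells did not show such a gap, with 0.21 (-0.06 to 0.48) in naive lungs and -0.59 (-0.85 to -0.33) at 3 d. Basophil or mast cells held 183, 128 and 162 CPM of Cd274. Their log2 ratio to neutrophils was 0.20 in naive lungs (-0.40 to 0.74), -0.95 at 2 h (-1.91 to -0.14) and 0.36 at 3 d (0.07 to 0.64). B cells lay lower than both, with 71.1 CPM (62.6 to 80.4), 38.8 CPM (29.8 to 49.6) and 49.8 CPM (45.9 to 54.0). The log2 ratio of B cells to those of naive lungs was -0.87 (-1.30 to -0.47) at 2 h and -0.51 (-0.73 to -0.29) at 3 d. NK cells held between 43.5 and 57.2 CPM (the interval of 213 UMIs) in naive lungs, 40.7 CPM (29.2 to 55.2) at 2 h and 61.2 CPM (50.8 to 73.2) at 3 d, so that NK cells at 3 d lay above those at 2 h by 0.59 (0.07 to 1.14). T-like cells held 35.9, 30.8 and 34.1 CPM. Dendritic cells held 61.5 CPM at 2 h and 75.1 CPM at 3 d, within counting error of each other (log2 ratio 0.29, -0.80 to 1.64). Macrophage-labelled cells went from 137 CPM in naive lungs to 68.4 CPM at 2 h and 45.7 CPM at 3 d, again across unlike cells.

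**Figure D5:**
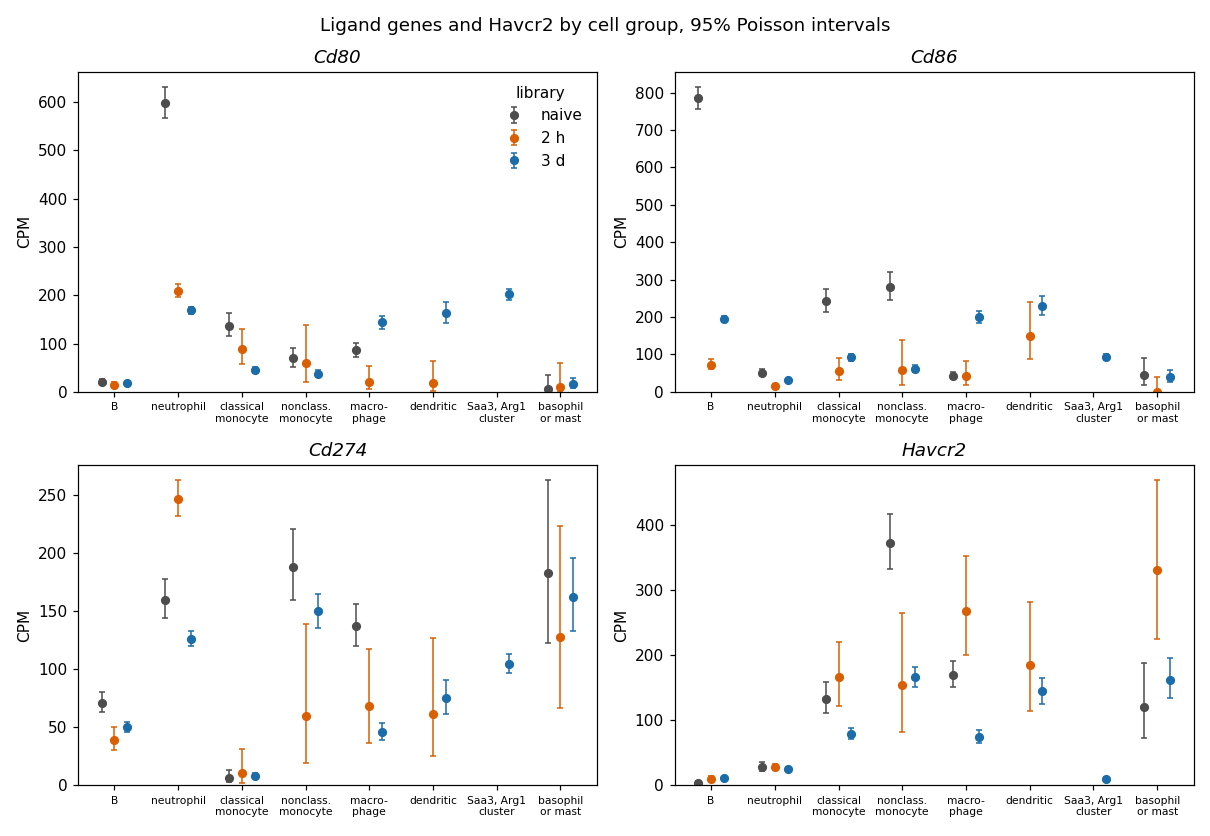
Levels in CPM of Cd80, Cd86, Cd274 and Havcr2 in the myeloid groups and B cells of each library, with exact 95% Poisson intervals (counting error only). Cd86 in B cells lies at 785 CPM in naive lungs and at 72.6 and 194 CPM in the grafts, and Cd274 separates nonclassical from classical monocytes in the naive and 3 d libraries.

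Over the 7 lineages, 34 pairs of member and lineage had enough UMIs to compare 2 h with naive. Of these, 5 were higher at 2 h by at least 2-fold (14.7%, against 10.1% of all pairs of gene and lineage) and 6 were lower (17.6%, against 29.3%). The 5 higher pairs were Pdcd1, Ctla4, Cd28 and Icos in NK cells, and Havcr2 in B cells. In the NK cells at 2 h with a Cd3 UMI lay 55 of 57 Pdcd1, 21 of 24 Ctla4, 51 of 90 Cd28 and 35 of 73 Icos UMIs. The 6 lower pairs were Cd86 in B, CD4 and neutrophil cells, Cd80 in neutrophils and macrophages, and Cd274 in macrophages. Between 3 d and naive, 42 pairs were compared, of which 7 were higher (16.7%, against 11.1%) and 9 were lower (21.4%, against 18.9%). Between 3 d and 2 h, 48 pairs were compared, of which 8 were higher (16.7%, against 18.8%) and 8 were lower (16.7%, against 8.69%). Each of the 8 higher pairs belonged to Cd80, Cd86 or Havcr2. Of these, 4 stayed past 2-fold in every alternative processing that gave a value, as did 6 of the 8 lower pairs. Among the higher pairs, Cd86 in CD4, NK and macrophage cells and Havcr2 in CD8 cells did not. The Havcr2 ratio turned to -0.37 with all deposited cells called individually. Of the 8 lower pairs, 7 belonged to Ctla4, Pdcd1, Icos, Cd28 or Tigit in CD8, NK or B cells. Among these 7, Ctla4 and Pdcd1 in NK cells had most of their 2 h UMIs in the cells with a Cd3 UMI. Cd28 and Icos in B cells turned direction when cells were called individually. The median log2 ratio of the member pairs was -0.13, 0.13 and 0.26 in the 3 comparisons, and that of all pairs was -0.33, -0.02 and 0.25. The naive and 2 h libraries each serve in several of these counts, so the comparisons are not independent.

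Several of the pairs past 2-fold were receptors in cells not known for them. Cd28 in macrophages had 31 UMIs at 3 d and 1 in naive lungs (log2 ratio 4.03, 1.45 to 9.38), and Icos in macrophages had 34 and 3 UMIs (2.58, 0.91 to 4.93). Summed Cd3d, Cd3e and Cd3g in these macrophages stood at 30.8 CPM at 3 d and 4.81 CPM in naive lungs, and their part in the ratios was not tested. Ctla4 in B cells was 12.3 CPM (8.95 to 16.5) in naive lungs, 6.77 CPM (3.38 to 12.1) at 2 h and 1.52 CPM (0.90 to 2.39) at 3 d, on 44, 11 and 18 UMIs. Cd28 and Icos in B cells, with 11 and 16 UMIs at 2 h, were lower at 3 d by -1.87 and -2.78, and both ratios turned above 0 when the cells were called individually.

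Within a library, the lineages could be ranked for 9 members in naive lungs, 8 at 2 h and 9 at 3 d. The leading lineage held at least 2 times the CPM of the next for 7 of 9 in naive lungs (26.4% of all genes), for 5 of 8 at 2 h (22.2%) and for 4 of 9 at 3 d (19.0%). In naive lungs these were Ctla4, Pdcd1, Icos and Cd28 in CD4 cells, Havcr2 in macrophages, Cd80 in neutrophils and Cd86 in B cells, where the last exceeded the next lineage 15.3 times. The 5 at 2 h included Tigit in NK cells, with CD8 cells as the next lineage, because the 0 UMIs of CD4 cells were ranked as 0. With that sum set to 3 UMIs, NK cells exceeded CD4 cells by 0.38 on the log2 scale, under 2-fold. At 3 d Ctla4 in CD4 cells exceeded the next lineage 8.16 times. Neither B7 ligand had a clear leader at 3 d, with Cd80 in neutrophils 1.03 times the dendritic level and Cd86 in dendritic cells 1.15 times the macrophage level. Cd86 was not ranked at 2 h, where its leading lineage, the dendritic cells, held only 17 UMIs. The naive library, however, had no dendritic cluster to rank. Monocytes lay outside the 7 lineages and were not ranked. In naive lungs nonclassical and classical monocytes held 281 and 243 CPM of Cd86, above the lineage next to B cells. Naive nonclassical monocytes held 372 CPM of Havcr2, above the 170 CPM of the macrophages.

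Other co-signalling genes, 16 in all and none of them a member, were counted in the same way. Between 2 h and naive 6 of 50 pairs were higher (12%, against 10.1% of all pairs of gene and lineage) and 10 lower (20%, against 29.3%). Between 3 d and naive 18 of 60 were higher (30%, against 11.1%) and 5 lower (8.33%, against 18.9%). Between 3 d and 2 h 17 of 68 were higher (25%, against 18.8%) and 9 lower (13.2%, against 8.69%). The pairs with the largest ratios of 3 d to 2 h were Cd244a, Ceacam1 and Btla in macrophages (-4.02, -3.84 and -3.81) and Ceacam1 in NK cells (3.84). Next came Ceacam1 in CD8 cells and Tnfrsf14 in neutrophils (-2.50). Ceacam1 in CD8 cells went from 0 UMIs at 2 h to 150 at 3 d. Its ratio was 2.65 with the 0 set to 3 UMIs, and its interval ran from 2.33 upward. The macrophage pairs compare the mixed cells of 2 h with the C1q cells of 3 d. Icosl, the ligand of ICOS, was even in B cells at 53.2, 56.6 and 57.1 CPM. Pdcd1lg2, the other PD-1 ligand, reached 341 CPM in naive basophil or mast cells and 256 CPM at 3 d.

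The genes most like each member were sought over the 20 points of lineage and library, with Pearson's r of log2(CPM + 10) over 12893 genes as a description. The nearest gene to Cd28 was Icos and the nearest to Icos was Cd28, with r of 0.985. The T cell adaptor gene Trat1 was nearest to both Ctla4 (0.957) and Pdcd1 (0.832). Among the ligands, the nearest were Slc15a3 for Cd80 (0.946), Cnpy3 for Cd86 (0.914) and Id1 for Cd274 (0.921). Tigit lay nearest to Tmem14a (0.968), Havcr2 to Bcl2a1d (0.937) and Lag3 to Ece1 (0.872). Over the 20 points, log2(CPM + 10) spanned only 1.28 for Lag3 and 1.67 for Tigit, against 2.74 to 5.67 for the other members. The values of Lag3 and Tigit are therefore the least secure. Points of the same library share its depth and software, so these values carry both.

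The transplant libraries also held counts of 277 surface antibodies. The antibodies against the products of the member genes gave 0 to 86 UMIs each per library and summed to 133 UMIs at 2 h and 130 at 3 d. The highest was the TIGIT antibody with 86 UMIs at 2 h and 78 at 3 d. The isotype controls, which have no target, gave 136 to 3677 UMIs each at 2 h and 312 to 4262 at 3 d. No member's antibody thus reached the lowest isotype control of its library. The same held for CD45, on which the cells had been sorted (26 and 13 UMIs), and for CD3 (0 UMIs in both), while CD44, CD49f and ITGB7 had 111132 to 554034 UMIs each. Whether each antibody bound its mouse protein was not tested here, so these counts say nothing on the amount of surface protein.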

How the data were processed

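Immune cells sorted from mouse lungs were profiled as 3 single-cell libraries, and the authors deposited unnormalized UMI counts per gene and cell. Per the file headers they were written by Cell Ranger 7.1.0 (naive) and 6.0.0 (transplants), and the submitters' processing notes name mm10, Cell Ranger 6 and Seurat 4. The cell filters were those of the study's methods, which ask for over 200 and under 6000 genes, a mitochondrial share under 10% and under 25000 UMIs. The kit is given as 3' in the methods and as both 5' and 3' in the labels.

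SCTransform values (mitochondrial share and UMIs regressed out, member genes left out) were clustered with Seurat 5.3.0 and sctransform 0.4.2 in R 4.3.3 on 30 principal components at a resolution of 0.8. All cells outside the T, B, NK and neutrophil clusters, named or not, were clustered again per library at 1.6. This step was chosen after the markers had been seen. A lineage was named from its markers, and cells of other types were left out of the 7 lineages. Scrublet (scanpy 1.11.5) called 40, 403 and 277 doublets in the naive, 2 h and 3 d libraries, which were kept. Sums, exact intervals and ratios were computed in Python 3.11.15 with numpy 2.4.6, scipy 1.17.1 and pandas 2.3.3, and figures were drawn with matplotlib 3.10.9. UMIs are counted as independent molecules, and intervals cover counting error only. When tested on simulated data of 3 d against 2 h in B cells (8538 genes, 200 of them raised by a log2 ratio of 2) the raised genes had a median ratio of 2.00, and the true ratio lay inside 95.9% of the intervals.

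The members and lists were chosen with earlier results of these data known. The text names the 10 members, other co-signalling genes as counts and by the 6 largest ratios of 3 d to 2 h, and the nearest genes by correlation. Icosl and Pdcd1lg2 and the clusters described were chosen after their values were seen. No test was run, since each condition had 1 library. Cell type assignment, resolution, normalization before clustering, cell filter, doublets, cells with UMIs of other lineages, summary over cells, denominator, thinning to 500 UMIs and the subtraction of intron class medians were varied.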

Additional observations from a re-analysis of the deposited data

Results flagged for a closer look

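At 3 d against naive, the same gene was past 2-fold higher in one lineage and past 2-fold lower in another for 3 members, and the difference between the lineages was not tested in any of them. The log2 ratio of Havcr2 was 1.88 in CD8 cells and 1.69 in B cells but -1.20 in macrophages, where the naive cells were of the alveolar kind and the 3 d cells carried C1q genes. That of Cd80 was 3.03 in NK cells, on 10 naive and 38 later UMIs, but -1.83 in neutrophils, on 1344 and 2071 UMIs. That of Cd86 was 2.23 in macrophages but -1.38 in CD4 cells and -2.02 in B cells, and the CD4 value rested on a few naive Foxp3+ cells.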

How the results depend on the processing

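With 1 library per condition no replicate could be left out. No paired analysis was possible because no condition had more than 1 library. Of the 43 pairs of member and lineage past 2-fold, 25 stayed past 2-fold in the same direction in every alternative that gave a value and 18 did not, among them all but Pdcd1 in NK cells of the 5 pairs higher at 2 h than in naive lungs, and Pdcd1 had too few UMIs for a value without NK cells with a Cd3 UMI. Ctla4 and Pdcd1 in NK cells between 3 d and 2 h are among the 25, but had values in only 5 and 7 alternatives. Neither had enough UMIs for a value once NK cells with a Cd3 UMI were removed. Cd86 in B cells, Cd80 in neutrophils and Ctla4 in CD8 cells at 3 d kept their direction and stayed past 2-fold throughout. The division of T cells by CD4 and CD8 antibody counts was not run, since these antibodies had 0 to 11 UMIs per library. The removal of NK cells with a Cd3 UMI and the restriction to the first clustering were chosen after seeing the data, and the second of them left every count within 1.5 times.

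For 2 h against naive, the 5 higher pairs became 1 with log-normalized clustering, 2 with means over cells, 3 with thinned cells, 9 with intron class medians subtracted and 1 without NK cells with a Cd3 UMI. The 6 lower pairs became 12 with cells called individually, 14 with all deposited cells called so and 10 without doublets. For 3 d against naive, the 7 higher pairs became 3 and 4 with cells called individually (kept and all deposited), 2 without cells with UMIs of another lineage and 1 with thinned cells, and the 9 lower pairs became 4 with thinned cells. For 3 d against 2 h, the 8 lower pairs became 5 with log-normalized clustering, 3 with thinned cells and 5 without NK cells with a Cd3 UMI. The members with a leading lineage became 4 of 7 in naive lungs both with all deposited cells and with thinned cells, and at 2 h 3, 3 and 2 in place of 5 with cells called individually, all deposited cells and thinned cells. Thinning leaves fewer UMIs and so fewer pairs past the minimum, and the other causes were not tested.

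The direction turned for Cd28 in B cells between 3 d and 2 h (0.75 with cells called individually, 0.77 with all deposited cells, 0.15 with means over cells), for Icos in B cells (0.47 and 0.51 with cells called individually and all deposited cells), for Ctla4 in NK cells between 2 h and naive (-0.24 with log-normalized clustering, -0.27 without NK cells with a Cd3 UMI), for Icos in NK cells at 2 h (-0.12 with thinned cells) and for Havcr2 in CD8 cells with all deposited cells (-1.48 for 3 d against naive, -0.37 for 3 d against 2 h). At 2 h Tigit had 0 UMIs in CD4 cells, where 3 UMIs would be 16.8 CPM.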
